A study of Fukomys damarensis and Heterocephalus glaber and Mus musculus with 160 samples.

Results

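Heart-only promoters are taken here as stretches of chromatin that carried 2 histone marks of an active promoter in heart and met no replicated histone mark region in liver of the same species. They were picked out in 4 rodents, the naked mole-rat (NMR), the Damaraland mole-rat (DMR), the guinea pig and the mouse, from peak lists of chromatin immunoprecipitation sequencing (ChIP-seq). In all, 5162 regions met the rule, of 265173 heart H3K27ac regions and 76784 heart promoters. The regions were chosen by the measured peaks themselves: a heart H3K27ac region, seen in at least 2 animals, that overlapped a heart H3K4me3 region and no liver region of H3K27ac, H3K4me3 or H3K4me1. A region was built by keeping each peak that overlapped a peak of another replicate by at least 50% of the shorter one and merging what was kept, and the same 50% decided every later overlap. Mouse regions were limited to autosomes.

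A promoter is the stretch around a gene's start where transcription begins. H3K4me3 is laid down at active gene starts. Acetylation at H3K27 is found where promoters or enhancers are in use, and H3K4me1 is typical of enhancers, the distant elements that raise a promoter's activity. Many promoters serve genes that nearly every cell uses and so carry these marks in most tissues. Those marked in a single tissue tend to belong to genes of that tissue's own work, such as contraction in the heart, and are often surrounded by enhancers of the same tissue. Here the word promoter rests on the pair of marks alone, since no gene positions of the builds used were at hand, and heart and liver marker genes were not analysed here for the same reason.

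All animals were wild-type adults. Mice were C57BL/6J males of 2 months, guinea pigs were males of 2.3 months, NMR animals were males of 13 to 17 months, and DMR animals were males of an estimated 36 to 48 months, apart from the female DMR6, source of a liver H3K27ac, a liver H3K4me1 and a heart TBX5 list. Livers had been perfused with buffered saline and blood clots taken out of hearts. Diced whole heart and liver were used, so a weaker peak can stand for fewer cells with the mark or for less mark per cell, which cannot be told apart. The heart groups held 3 H3K27ac and 4 H3K4me3 libraries in NMR, 5 and 5 in DMR, 3 and 3 in guinea pig and 6 and 6 in mouse, where 1 library of each mark came from 3 pooled animals. Heart H3K4me1 had 3, 5, 3 and 5 libraries in the same order, 1 of the mouse ones from that pool. Liver groups held 5 libraries of each mark in NMR, 3 in guinea pig and 4 in mouse, while DMR liver had 2 of H3K4me3 and 5 each of H3K27ac and H3K4me1.

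Some libraries stood apart. NMR liver H3K4me3 of NMR30 held 253457 peaks. Heart H3K4me1 of the mouse pool held 20489 peaks on autosomes, against 70229 to 128372 in the other mouse heart H3K4me1 lists. Heart H3K4me3 of NMR34 and DMR11 and heart H3K27ac of DMR1 held peaks at fewer of the regions than the others of their groups did, at 24.0%, 22.8% and 47.0%. Mouse heart H3K4me3 of 6839 was low too, at 35.7%. None of 176 pairs of lists within a group was identical. Read depth is unknown, because peak lists carry no read numbers, and mouse heart H3K27ac and H3K4me3 libraries all bore names beginning with "do" while 2 of 3 and 3 of 4 NMR libraries bore names beginning with "vl".

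Heart-only promoters were a small minority of heart promoters in every species. NMR had 906 of 19172 heart promoters, or 4.73% (Wilson 95% interval 4.43 to 5.04). DMR had 2189 of 22730 (9.63%, 9.25 to 10.0), the guinea pig 853 of 17838 (4.78%, 4.48 to 5.10) and the mouse 1214 of 17044 (7.12%, 6.75 to 7.52). These intervals cover counting error only. As a background, 42.2% of all heart H3K27ac regions of NMR met no liver region, as did 43.5% in DMR, 40.9% in guinea pig and 49.5% in mouse. Both shares rest on the liver contrast that chose the regions and are given as a description, and nothing is read from them. The highest count came from DMR, whose liver H3K4me3 regions rested on 2 libraries.

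The counts leaned on a few libraries. Leaving out the heart H3K4me3 library of NMR31 lowered the NMR count from 906 to 547. Leaving out the pooled mouse H3K4me3 library lowered the mouse count from 1214 to 827, a factor just under 1.5. With 1 library left out at a time, the count ran from 547 to 987 in NMR, from 1754 to 2543 in DMR, from 696 to 1091 in guinea pig and from 827 to 1450 in mouse. The highest Damaraland count arose when either liver H3K4me3 library was left out, which leaves that group with no replicated region.

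Single animals gave larger numbers when each was read on its own lists. Heart and liver lists of all the marks needed came from the same animal in 3 NMR animals, 2 DMR animals and 3 guinea pigs. Heart-only promoters numbered 2483 in NMR31, 1199 in NMR32 and 2260 in NMR35, or 11.5%, 6.30% and 8.95% of the animal's heart promoters. DMR1 had 2384 (13.5%) and DMR4 had 2561 (11.5%). Guinea pigs 7, 8 and 9 had 1283, 1435 and 1600, or 5.98%, 7.37% and 8.11%. The 2 DMR animals thus had shares at or above that of the highest NMR animal, and the guinea pigs overlapped the NMR animals. Of the species-wide set, an animal alone recovered 53.0% to 80.9% in NMR animals, 36.9% and 47.5% in DMR1 and DMR4, and 71.5% to 73.7% in guinea pigs.

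The absence from liver was a matter of replication for many regions. No peak in any single liver library was found at 425 NMR regions (46.9%), 1236 DMR regions (56.5%), 539 guinea pig regions (63.2%) and 711 mouse regions (58.6%). A peak in exactly 1 liver library lay at 289, 570, 199 and 377 regions, and peaks in 2 or more at 192, 383, 115 and 126. Counts by mark are given over unequal numbers of libraries. In mouse 424 regions had a liver H3K4me1 peak, against 96 with H3K27ac and 82 with H3K4me3, and in DMR 640 had H3K4me1 against 330 and 334. In NMR H3K4me3 led with 274 regions, against 246 for H3K4me1 and 140 for H3K27ac, whereas only 26 guinea pig regions had a liver H3K4me3 peak. At the other end, peaks of both marks in every heart library and none in any liver library were found at 72 NMR, 182 DMR, 332 guinea pig and 107 mouse regions, groups with 3 to 6 heart libraries a mark.

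Just inside the rule, a liver region touched a heart-only promoter by less than 50% of the shorter one at 71, 135, 84 and 95 regions in NMR, DMR, guinea pig and mouse. Their median widths were 759, 748, 756 and 677 bases. Just outside it, 41, 41, 37 and 46 heart promoters were met by a liver region of 1 mark over 50 to 60% of the shorter. Their median widths were 548, 696, 1087 and 724 bases. Median fold percentiles of H3K27ac inside this edge were 52.0, 52.8, 57.4 and 46.0, and outside it 45.9, 54.1, 62.9 and 45.7, where a fold percentile is the rank of a peak's deposited fold enrichment among all peaks of its own list.

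Libraries that took no part in choosing the regions gave a replicate check. Each library was left out in turn, the regions were chosen again from the rest, and the share of them with a peak in the left-out library was read beside the same share for promoters found in liver. In heart H3K27ac libraries that share was 89.2% ± 4.69 (SD, n = 3) in NMR, 72.7% ± 19.0 (n = 5) in DMR, 90.2% ± 8.25 (n = 3) in guinea pig and 72.5% ± 9.44 (n = 6) in mouse. Promoters found in liver gave 94.9%, 87.0%, 96.8% and 92.7%. The share was lower for heart-only promoters in each of these 17 libraries.

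Heart H3K4me3 libraries spread more widely. Left-out shares were 67.8% ± 32.5 (SD, n = 4) in NMR, 67.7% ± 26.8 (n = 5) in DMR, 90.1% ± 2.74 (n = 3) in guinea pig and 59.9% ± 18.3 (n = 6) in mouse, beside 87.0%, 91.1%, 98.4% and 90.3% for promoters found in liver. The lowest were NMR34 with 23.4% and DMR11 with 22.7%, where promoters found in liver reached 58.4% and 75.1%. DMR1 was the lowest H3K27ac library with 46.3%. Guinea pig H3K4me3 libraries, with 88.1% to 93.2%, stood closest together.

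In left-out liver libraries few of the regions had a peak. For H3K27ac the share was 6.25% ± 3.83 (SD, n = 5) in NMR, 6.61% ± 4.21 (n = 5) in DMR, 16.1% ± 7.66 (n = 3) in guinea pig and 4.48% ± 1.45 (n = 4) in mouse, against 81.3% to 91.4% for promoters found in liver. For H3K4me3 it was 10.8% ± 5.58 (n = 5) in NMR, 1.55% ± 0.93 (n = 3) in guinea pig and 4.11% ± 1.90 (n = 4) in mouse. For H3K4me1 the shares were 11.7% ± 3.94 (n = 5), 12.4% ± 6.12 (n = 5), 23.6% ± 8.48 (n = 3) and 17.1% ± 15.9 (n = 4) in NMR, DMR, guinea pig and mouse. The widest range was mouse H3K4me1, whose libraries ran from 6.39% to 40.5%.

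**Figure D1:**
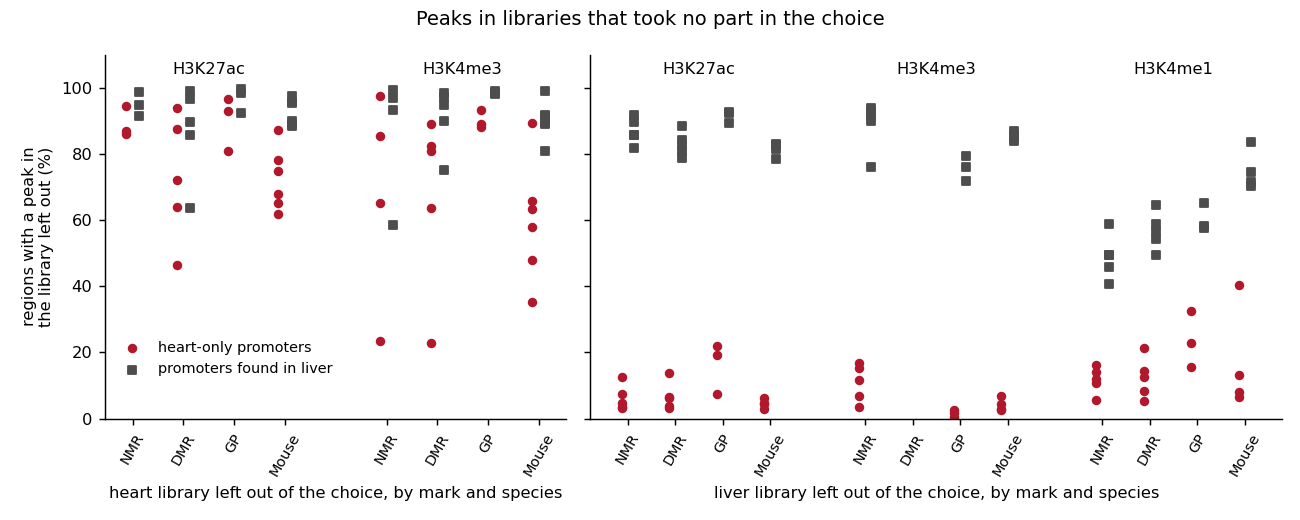
Share of regions (%) with a peak in a library that was left out when they were chosen, by species (GP, guinea pig), with 1 point per library; red circles are heart-only promoters and grey squares promoters found in liver. DMR liver H3K4me3 has no points because 2 libraries were used. NMR34 (23.4%) and DMR11 (22.7%) are the low points among heart H3K4me3 libraries, and liver points of heart-only promoters stay at or below 40.5%.

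Heart-only promoters had lower fold enrichment than promoters found in liver, in every heart library. The deposited fold is the authors' linear ratio of reads over background at a peak, and its scale differs between libraries, so its rank within a list was compared. Presence in liver chose the regions and the overlap rule depends on width, so fold and width beside promoters found in liver are a description without a test. For H3K27ac the mean of the library medians was the percentile 72.5 ± 2.38 (SD, n = 3) against 86.3 ± 2.12 in NMR. It was 68.4 ± 4.16 against 82.8 ± 7.81 (n = 5) in DMR, 73.3 ± 2.54 against 88.5 ± 1.43 (n = 3) in guinea pig and 63.7 ± 4.65 against 86.8 ± 3.34 (n = 6) in mouse. DMR1 was the exception in size, with 68.6 against 69.7.

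On average the gap was wider for H3K4me3, the mark of gene starts. Percentiles were 53.4 ± 20.8 (SD, n = 4) against 76.6 ± 10.5 in NMR, 43.1 ± 15.2 against 71.1 ± 7.99 (n = 5) in DMR, 28.4 ± 2.71 against 65.6 ± 1.43 (n = 3) in guinea pig and 36.4 ± 14.9 against 70.1 ± 7.31 (n = 6) in mouse. In deposited folds, guinea pig 7 had a median H3K4me3 fold of 9.71 at heart-only promoters and 52.2 at promoters found in liver. The same pair was 9.0 and 42.7 in guinea pig 8 and 9.90 and 46.7 in guinea pig 9. All 3 guinea pigs thus ranked heart-only promoters below the middle of their H3K4me3 lists. NMR34, with the highest percentile of 77.2, had a peak at 24.0% of the regions only.

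**Figure D2:**
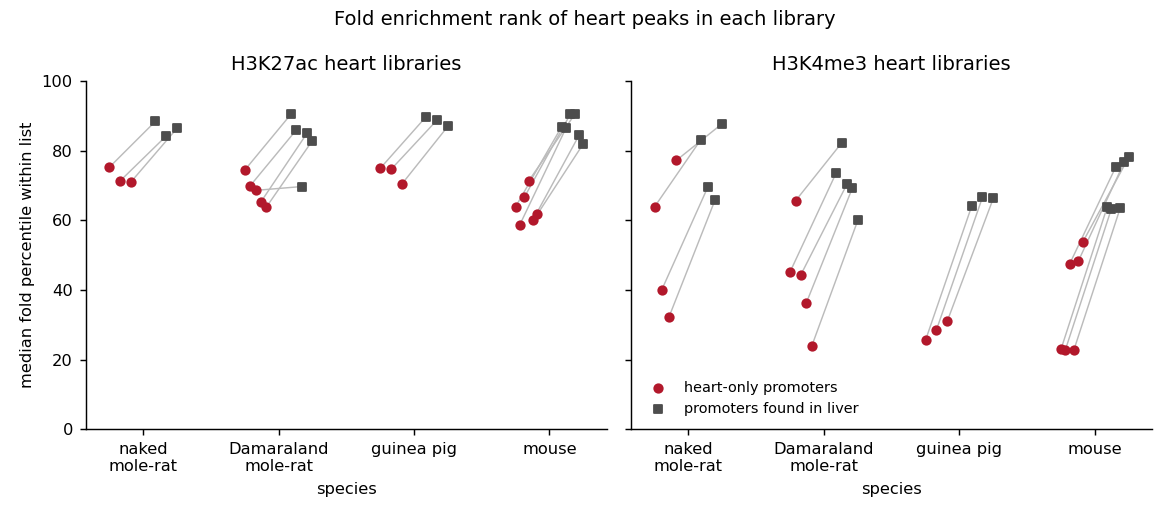
Median percentile of deposited fold enrichment within its own list, for peaks at heart-only promoters (red circles) and at promoters found in liver (grey squares), with a line joining the 2 values of each heart library. The red point lies below the grey one in all 17 H3K27ac and all 18 H3K4me3 libraries.

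Peaks at heart-only promoters were narrower in 15 of 17 H3K27ac and all 18 H3K4me3 heart libraries. Median H3K27ac peak widths in NMR were 658 bases in NMR35, 795 in NMR31 and 685 in NMR32, beside 777, 760 and 780 at promoters found in liver, so the 2 classes overlapped. In DMR they were 566 in DMR2, 682 in DMR4, 571 in DMR1, 542 in DMR3 and 563 in DMR11, beside 864, 978, 560, 722 and 692. The guinea pig gave 794, 904 and 734 beside 1158, 1120 and 984, with no overlap. In mouse the lowest was 456 and the highest 898, beside 900 to 1336, again with no overlap.

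H3K4me3 peaks had median widths of 378 bases in NMR35, 1026 in NMR31, 464 in NMR32 and 434 in NMR34, beside 746, 1144, 699 and 558. In DMR the range was 302 to 557 beside 514 to 939, in guinea pig 454 to 724 beside 1055 to 1309, and in mouse 441 to 854 beside 969 to 1728. In guinea pig and mouse only did the ranges stay apart for both marks.

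**Figure D3:**
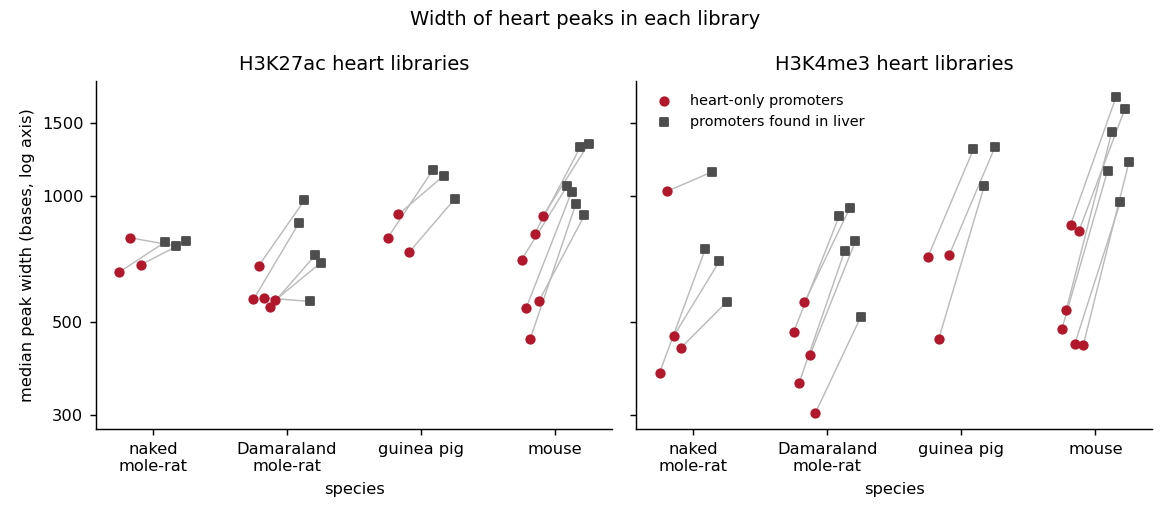
Median peak width (bases, log axis) in each heart library at heart-only promoters (red circles) and at promoters found in liver (grey squares), with a line joining the 2 values of a library. NMR H3K27ac values overlap (658 to 795 against 760 to 780), whereas mouse values do not (456 to 898 against 900 to 1336).

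Relative width, the log2 ratio of the median peak width at heart-only promoters to that at promoters found in liver in the same library, was then compared between species. For H3K27ac it was −0.12 ± 0.16 (SD, n = 3) in NMR, −0.36 ± 0.25 (n = 5) in DMR, −0.43 ± 0.12 (n = 3) in guinea pig and −0.75 ± 0.20 (n = 6) in mouse. For H3K4me3 it was −0.52 ± 0.35 (n = 4), −0.88 ± 0.12 (n = 5), −0.98 ± 0.21 (n = 3) and −1.21 ± 0.20 (n = 6) in the same order. The rule depends on width in both terms of this ratio, so the species values remain a description of the chosen sets. A p given here covers the spread between libraries alone and is no independent test of a species difference. On those terms 4 of 12 two-sided exact permutation tests were under the Benjamini-Hochberg threshold of 0.05, each with an adjusted exact p of 0.0455. NMR exceeded the mouse by 0.63 for H3K27ac and 0.68 for H3K4me3, and DMR exceeded the mouse by 0.39 and 0.33. All NMR H3K27ac values lay above all mouse values, whereas the other 3 pairs overlapped. The 2 mole-rats differed by 0.24 for H3K27ac and 0.36 for H3K4me3, with adjusted exact permutation p of 0.214 and 0.171. For H3K4me3 that pair was under the threshold with mean in place of median width, at 0.41 (adjusted exact permutation p = 0.0286), and with a −log10 q of at least 4, at 0.42 (adjusted exact permutation p = 0.0317).

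The differences kept their sign with 1 library left out, while the calls did not hold. NMR minus mouse ran from 0.49 to 0.99 for H3K27ac and from 0.59 to 0.97 for H3K4me3, and DMR minus mouse from 0.25 to 0.54 and from 0.24 to 0.41. No pair passed without NMR35, NMR31 or NMR32 of H3K27ac, NMR34 of H3K4me3 or DMR1 of H3K27ac. The same held without any 1 mouse library other than H3K4me3 of 6837. Every such choice lowers the number of permutations, and without DMR2, DMR4, DMR3 or DMR11 of H3K27ac 4, 4, 4 and 3 pairs passed. The cause was not tested. Among libraries whose names begin alike, the 4 differences were 0.52, 0.23, 0.19 and 0.22, in the order H3K27ac and H3K4me3 first of NMR and then of DMR. Only 1 NMR library and 2 DMR libraries of each mark share the beginning of the mouse names. Within name series too few permutations remain for any of the 12 pairs to pass after adjustment, so those p-values say nothing. Widths of the heart-only promoters by themselves gave no pair past the threshold and 2 of 12 with an unadjusted exact permutation p below 0.05. Their mean H3K27ac width was 713 ± 72.6 bases (SD, n = 3) in NMR, 585 ± 55.6 (n = 5) in DMR, 811 ± 86.2 (n = 3) in guinea pig and 662 ± 172 (n = 6) in mouse, while at promoters found in liver it was 772, 763, 1087 and 1098. Beside the mouse, both mole-rats thus stood further apart in the width of promoters found in liver than in that of heart-only promoters.

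Merged regions had their smallest gap between the classes in NMR. The median region width was 1014 bases at heart-only promoters and 1029 at promoters found in liver in NMR, 910 and 1198 in DMR, 1171 and 1396 in guinea pig and 1106 and 1689 in mouse. The 95th percentile of width was 5652 bases against 3862 in NMR and 5013 against 4877 in guinea pig, so the tail of heart-only promoters was the longer one there. It was 4531 against 4849 in DMR and 5238 against 6232 in mouse.

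H3K4me3 covered less of the H3K27ac region at heart-only promoters. The median share of the region covered was 73% in NMR, 70.4% in DMR, 70.4% in guinea pig and 70.5% in mouse, beside 92.9%, 87.5%, 89.7% and 92.6% at promoters found in liver. Under 25% was covered at 8.50% (Wilson 95% interval 6.85 to 10.5), 11% (9.77 to 12.4), 9.73% (7.92 to 11.9) and 6.67% (5.40 to 8.22) of heart-only promoters, beside 3.03%, 5.20%, 2.94% and 3.06%. An overlap of 50% of the shorter region lets in a narrow H3K4me3 region inside a broad H3K27ac region. The counts with at least 50% of the region covered, a limit chosen after the values were seen, were 670, 1519, 598 and 890.

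A few regions were very wide. Those of at least 5 kb, another limit chosen after the values were seen, numbered 58 in NMR (6.40%, Wilson 95% interval 4.98 to 8.19), 91 in DMR (4.16%, 3.40 to 5.08), 44 in guinea pig (5.16%, 3.86 to 6.85) and 67 in mouse (5.52%, 4.37 to 6.95). Among promoters found in liver the shares were 2.91%, 4.72%, 4.70% and 8.11%, lower than at heart-only promoters in NMR and higher in mouse. H3K4me3 covered a median of 30.5%, 32.4%, 29.7% and 38.7% of the wide heart-only regions, beside 33.2%, 30.7%, 42.7% and 51.5% of equally wide promoters found in liver, so low coverage was common to both classes in NMR and DMR.

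Heart H3K4me1 was less common at heart-only promoters than at promoters found in liver. Liver H3K4me1 helped to split the classes, and promoters found in liver had the larger median region width, so the shares are a description with no test. It lay at 15.8% (Wilson 95% interval 13.6 to 18.3) against 21.1% in NMR and at 36.0% (34.0 to 38.0) against 49.7% in DMR. Guinea pig shares were 25.1% (22.3 to 28.1) against 41.4%, and mouse shares 45.0% (42.2 to 47.8) against 64.8%. The order of the species was the same in both classes. Among heart-only regions of at least 5 kb the shares were 44.8%, 80.2%, 56.8% and 82.1%, beside 79.1%, 94.9%, 89.7% and 96.4% at promoters found in liver of that width. Wide regions thus carried H3K4me1 more often than the whole set in both classes.

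Active enhancers of the heart, taken as H3K27ac regions with H3K4me1 and without H3K4me3, were then counted within 50 kb of each promoter. Heart-only promoters had a mean of 1.68 in NMR, 3.13 in DMR, 2.52 in guinea pig and 2.74 in mouse. Promoters found in liver had 1.47, 3.11, 2.43 and 2.84. The NMR mean rested on 3 H3K4me1 libraries: it was 0.681 against 0.712 without NMR30 and 0.982 against 0.963 without NMR31. The difference, 0.055 ± 0.124 enhancers (SD, n = 4 species), was smaller than its spread, with heart-only promoters higher in 3 of 4 species (two-sided exact sign-flip p = 0.5, where 4 species can give no less than 0.13). No active enhancer lay within 50 kb of 49.2% (Wilson 95% interval 46.0 to 52.5), 31.9% (30.0 to 33.9), 41.3% (38.0 to 44.6) and 32.8% (30.2 to 35.5) of heart-only promoters, beside 53.0%, 30.9%, 39.4% and 32.5% of promoters found in liver. The median distance to the nearest one was 47.7, 18.3, 26.8 and 18.1 kb, beside 58.5, 19.6, 28.1 and 22 kb, with promoters that had no enhancer on their scaffold counted as farther.

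The definition of an enhancer and of the unit moved this difference. With H3K27ac regions without H3K4me3 counted whether or not they carried H3K4me1, heart-only promoters had 5.41, 5.72, 4.90 and 4.77 against 3.81, 4.99, 3.84 and 4.38, higher in 4 of 4 species by a mean of 0.947 (exact sign-flip p = 0.13). With promoters of the same class within 50 kb of each other averaged as 1 cluster, the mean difference was 0.393, again higher in 4 of 4 species (exact sign-flip p = 0.13). Averaging lowered promoters found in liver to 1.22, 2.50, 1.99 and 2.55, and heart-only promoters less, to 1.66, 3.03, 2.42 and 2.71. The larger difference cannot be told apart from this unequal weighting of crowded stretches in the 2 classes. Within 25 kb it was 0.067, and with regions in at least 3 heart libraries 0.077, each higher in 4 of 4 species (exact sign-flip p = 0.13 each). Within 100 kb it turned to −0.087. It also turned, to −0.004 without the H3K4me1 library of NMR30 and to −0.006 without either liver H3K4me3 library of DMR.

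Enhancer maps of single animals gave no common direction. All 3 heart marks came from 11 animals or pools, and the mean number of that animal's enhancers was higher near heart-only promoters in 5 of them. NMR31 and NMR32 were higher by 0.328 and 0.150. DMR1 and DMR4 were higher by 0.129 and 0.039, whereas DMR11, DMR2 and DMR3 had differences of −0.360, −0.259 and −0.193. Guinea pig 9 was higher by 0.153, and guinea pigs 7 and 8 had differences of −0.217 and −0.032. The mouse pool, the only mouse entry, had −0.263. It had 6312 active enhancers, against 11906 in DMR11 to 51418 in DMR2 among the other animals. DMR animals alone thus spanned both signs.

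A larger share of the enhancers near heart-only promoters was heart-only. Such enhancers, which met no liver region, were 39.3% of all heart active enhancers in NMR, 47.0% in DMR, 44.9% in guinea pig and 55.8% in mouse. Of the enhancers near heart-only promoters they made up 55.6%, 61.1%, 63.1% and 66.1%, and of those near promoters found in liver 29.9%, 37.8%, 37.4% and 47.0%. A heart-only promoter had a mean of 0.933, 1.92, 1.59 and 1.81 of them within 50 kb, against 0.441, 1.18, 0.911 and 1.33. The ratio was 2.12, 1.63, 1.75 and 1.36. Each of the 99 choices made without 1 library kept the higher mean near heart-only promoters, with ratios from 1.89 to 2.46, 1.51 to 1.87, 1.62 to 1.98 and 1.32 to 1.5. The NMR mean itself fell from 0.933 to 0.318 without H3K4me1 of NMR30 and to 0.5 without that of NMR31. Promoter and enhancer were both picked by absence from the same liver lists, so this is a description and carries no test.

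Liver active enhancers showed the reverse. Within 50 kb their mean was 1.96 near heart-only promoters and 4.08 near promoters found in liver in NMR, 2.19 and 4.35 in DMR, 1.63 and 3.36 in guinea pig and 1.39 and 2.68 in mouse. The ratios were 0.482, 0.503, 0.485 and 0.519. Liver enhancers came from the same liver lists that split the classes, and one that overlaps a promoter found in liver is counted there but barred at a heart-only promoter, so this too is a description with no test.

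**Figure D4:**
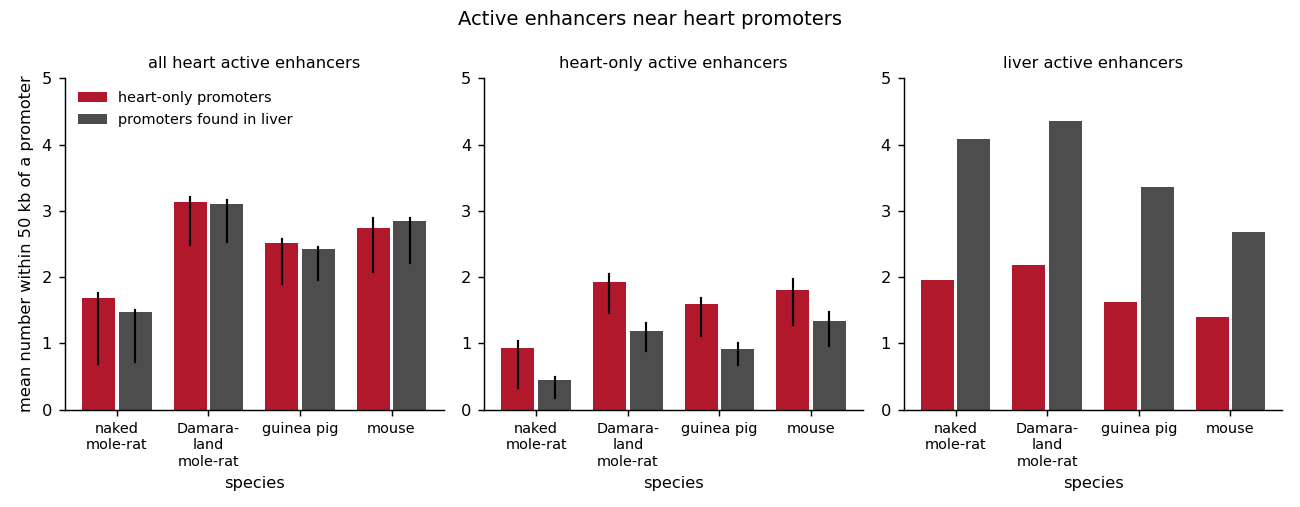
Mean number of active enhancers within 50 kb of heart-only promoters (red bars) and of promoters found in liver (grey bars) by species, for all heart active enhancers, for heart-only ones and for liver active enhancers; black lines span the values with 1 library left out at a time (none drawn for liver). All heart enhancers are nearly equal in the 2 classes (2.74 and 2.84 in mouse), heart-only ones are more numerous near heart-only promoters and liver ones fewer.

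Heart-only promoters lay near one another. Another heart-only promoter was within 50 kb of 32.7% of them in NMR, 36.2% in DMR, 19.7% in guinea pig and 21.7% in mouse, beside 6.34%, 15.9%, 6.71% and 9.89% of promoters found in liver. Neighbouring regions are therefore not independent of each other. The same liver lists chose a heart-only promoter and its heart-only neighbours, so these shares are a description and carry no test. Heart promoters of any kind were sparser around them, with a mean of 2.13, 2.46, 1.71 and 1.78 others within 50 kb against 2.53, 3.28, 2.39 and 2.31. On the mouse autosomes the share of heart promoters that were heart-only ran from 5.78% on chromosome 7 (Wilson 95% interval 4.61 to 7.22) to 11% on chromosome 14 (8.85 to 13.7).

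Within the heart-only set, regions with a higher mean H3K27ac fold percentile were wider, with Spearman's rho of 0.76, 0.68, 0.78 and 0.72 across 906, 2189, 853 and 1214 regions. They also had more heart active enhancers nearby, though weakly, with rho of 0.17, 0.24, 0.20 and 0.22. Promoters found in liver gave similar values, with rho of 0.67, 0.64, 0.66 and 0.66 for width and 0.12, 0.19, 0.17 and 0.17 for enhancers. With each set cut into 3 equal groups by percentile, the lowest group had a mean of 1.41, 2.34, 2.04 and 2.31 enhancers and the highest group 2.00, 4.15, 3.18 and 3.51. For heart-only enhancers the lowest and highest groups had 0.599 and 1.28, 1.33 and 2.78, 1.16 and 2.10, and 1.44 and 2.50. These regions share libraries and neighbours, so no p is given.

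For each species the 3 strongest regions were taken by mean H3K27ac fold among those with peaks of both marks in every heart library and no peak in any liver histone library. In NMR (HetGla_1.0) the first lay at the very start of a scaffold, JH202996.1:1-1377, with H3K27ac folds of 23.8 in NMR35, 33.5 in NMR31 and 32.1 in NMR32, or 29.8 ± 5.26 (SD, n = 3). Both marks of NMR35 and H3K27ac of NMR32 had peaks of exactly 1377 bases there. Scaffold lengths were not at hand, so whether the scaffold's end set this width, or its 0 enhancers within 50 kb, was not tested. The second, JH174047.1:370466-372725, had folds of 27.7, 27.1 and 34.6 in the same animals, 29.8 ± 4.16 (SD, n = 3), and 3 heart active enhancers within 50 kb. The third, JH168696.1:501852-506143, had folds of 19.0, 41.5 and 28.3, 29.6 ± 11.3 (SD, n = 3), and no heart active enhancer but 5 liver active enhancers within 50 kb. Their H3K4me3 folds were 73.2, 54.9 and 46.0 in NMR31 and 9.58, 7.43 and 6.96 in NMR34, on scales that differ between the lists: the percentiles were 86.3, 77.1 and 71.6 in NMR31 and 92.1, 86.4 and 84.7 in NMR34. These H3K27ac peaks ranked at the percentile of 96.3 or higher in their lists.

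In DMR (DMR_v1.0) the leading region, KN124838.1:1767295-1771191, had H3K27ac folds of 39.5 in DMR2, 31.2 in DMR4, 18.3 in DMR1, 17.7 in DMR3 and 21.6 in DMR11, a mean of 25.6 ± 9.44 (SD, n = 5). It also held a heart peak of TBX5, a transcription factor of heart development, in DMR6. The second, KN121407.1:1615844-1620742, reached H3K27ac folds of 21.6, 12.2, 25.2, 45.1 and 20.8, 25 ± 12.2 (SD, n = 5), and H3K4me3 folds of 71.3, 42.0, 80.6, 44.8 and 12, over an H3K4me3 region of 4815 bases. The third, KN120821.1:2988382-2993270, had H3K27ac folds of 31.4, 15.1, 19.3, 32.9 and 23.5, 24.4 ± 7.68 (SD, n = 5). Within 50 kb it had 7 heart active enhancers, of which 2 were heart-only, and 9 liver active enhancers. It met no liver histone peak, yet liver peaks of RXRA, FOXA1 and HNF4A lay there in DMR4, and RXRA and FOXA1 peaks of DMR4 lay at the second.

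Guinea pig regions (Cavpor3.0) split by their H3K4me3. The first, DS562974.1:836697-840737, had H3K27ac folds of 28.5, 31.0 and 20.7 in animals 7, 8 and 9, 26.8 ± 5.41 (SD, n = 3), with H3K4me3 folds of 13.3, 8.01 and 7.70 and 10 heart active enhancers within 50 kb. The second, DS562927.1:6622577-6628703, had H3K27ac folds of 26.1, 31.0 and 21.6 and H3K4me3 folds of 49.6, 45.8 and 35.4. The third, DS562970.1:1851917-1860018, had H3K27ac folds of 24.1, 30.8 and 22.6 over 8102 bases and H3K4me3 folds of 8.00, 6.95 and 4.10 over 496 bases. At DS562927.1 H3K27ac ranked at percentiles of 94.8 to 97.9, and H3K4me3 at 62.6, 68.6 and 58.9 in animals 7, 8 and 9. Median H3K4me3 percentiles at promoters found in liver were 64.0, 66.6 and 66.3 in the same animals. So DS562927.1 paired strong acetylation with H3K4me3 near the median of promoters found in liver. DS562974.1 and DS562970.1 paired strong acetylation with weak H3K4me3, at percentiles of 3.65 to 32.6.

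In mouse (GRCm38) folds of the 6 libraries differ in scale, so percentiles are given too. On chromosome 13 at 44226331-44233148 the H3K27ac fold ran from 11 to 49.4, with a mean of 24.7 ± 14.2 (SD, n = 6) and percentiles of 92.2 to 99.0, and the H3K4me3 fold from 4.00 to 12.3. On chromosome 1 at 172295038-172303460 it ran from 12.6 to 40.9, 24.4 ± 10.1 (SD, n = 6), at percentiles of 92.4 to 99.2, with H3K4me3 folds of 20.4 to 40.6. On chromosome 4 at 141421615-141424777 it ran from 8.48 to 40.9, 19.3 ± 12.2 (SD, n = 6), at percentiles of 78.4 to 97.8, with H3K4me3 folds of 8.40 to 45.6. The 3 had 6, 2 and 4 heart active enhancers within 50 kb, of which 5, 2 and 3 were heart-only.

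**Figure D5:**
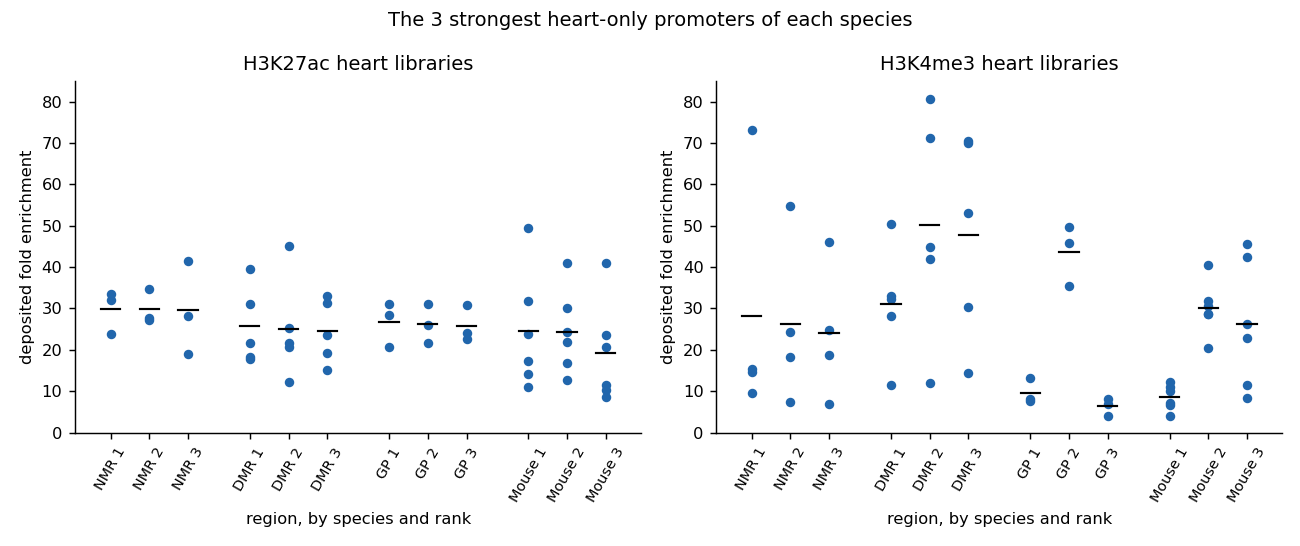
Deposited fold enrichment of H3K27ac and H3K4me3 in every heart library at the 3 strongest heart-only promoters of each species, numbered by rank; points are libraries and bars their mean. H3K27ac means lie between 19.3 and 29.8, whereas H3K4me3 is low (at most 13.3) at guinea pig regions 1 and 3 and at mouse region 1.

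The regions with the most neighbours were other ones. In NMR JH165519.1:72754-73956 had 20 heart active enhancers within 50 kb, of which 5 were heart-only, at a modest mean H3K27ac fold of 8.43 ± 2.06 (SD, n = 3). It had peaks in 2 liver libraries, H3K4me1 of NMR32 and H3K4me3 of NMR35. In DMR KN121537.1:3174809-3177781 had 25, of which 24 were heart-only, with no liver active enhancer within 50 kb, a liver HNF4A peak in DMR4 and a mean fold of 8.83 ± 3.20 (SD, n = 5). On mouse chromosome 19 at 57127623-57135343 there were 24, of which 18 were heart-only, with peaks of both marks in every heart library and none in liver. One guinea pig region, DS562880.1:23289140-23302494, had 19, of which 17 were heart-only, with H3K27ac folds of 24.2, 27.4 and 25.6. At 13355 bases it was also the widest of its species, with an H3K4me3 region of 529 bases. Its heart H3K4me3 peaks ranked at percentiles of 19.5, 34.2 and 32.8 in animals 7, 8 and 9. Its heart H3K4me1 peaks ranked at 98.5, 99.1 and 94.6. Liver H3K4me1 of guinea pig 7 had a peak there, with a fold of 4.23.

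The widest regions paired broad H3K27ac with narrow H3K4me3. JH170748.1:901413-918732 in NMR spanned 17320 bases with an H3K4me3 region of 387, and 11 of its 12 heart active enhancers within 50 kb were heart-only, though liver H3K4me3 and H3K4me1 of NMR30 had peaks there, as did liver FOXA1 of NMR30, RXRA of NMR35 and HNF4A and CEBPA of both animals. KN120547.1:3663132-3683494 in DMR spanned 20363 bases with 1521 of H3K4me3. All of its 7 enhancers within 50 kb were heart-only, it held a TBX5 peak in DMR6 and a liver HNF4A peak in DMR4, and no liver histone library had a peak there. Mouse chromosome 8 at 11367908-11390373 spanned 22466 bases with 971 of H3K4me3, which came from 2 of 6 libraries, 17_36584 and the pool, at folds of 3.0 and 5.52. That region also had liver peaks in 3 libraries, with folds of 4.11 to 6.26.

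Transcription factor peaks were read in the mole-rats. TBX5 was measured in 1 DMR heart, DMR6, a female that gave no histone list of heart. It had a peak at 343 of 2189 heart-only promoters, 15.7% (Wilson 95% interval 14.2 to 17.3), and at 13.8% (13.4 to 14.3) of promoters found in liver. Beside them stood 11.9% (11.4 to 12.4) of heart-only active enhancers. With heart H3K4me1 at the promoter, TBX5 lay at 23.8% (20.9 to 26.9) of heart-only promoters and 17.3% (16.6 to 18.1) of promoters found in liver. Without it the shares were 11.1% (9.59 to 12.9) and 10.4% (9.80 to 11). Heart-only promoters with H3K4me1 were wider, with a median of 1611 bases against 680, and at the regions of at least 5 kb TBX5 lay at 66 of 91 (72.5%, 62.6 to 80.6), beside 557 of 969 promoters found in liver of that width (57.5%, 54.3 to 60.6). The part that width had in these shares was not tested, and 1 library gives no replicate check.

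Liver factors lay at fewer heart-only promoters than promoters found in liver in all 16 liver factor libraries. The lists covered CEBPA, FOXA1, HNF4A, HNF6 and RXRA, regulators of liver genes. Shares at heart-only promoters ran from 0.822% to 8.28% and at promoters found in liver from 4.09% to 37.7%. At heart-only active enhancers they ran from 0.596% to 5.81%, lower than at heart-only promoters in each of these libraries. Liver histone marks split the classes, so these shares are a description and carry no test. RXRA of DMR4 was the widest gap, at 1.92% (Wilson 95% interval 1.42 to 2.58) against 37.7%. RXRA of NMR35 lay at 5.19% (3.92 to 6.83) against 33.6%. The narrowest gaps came from NMR30, with HNF4A at 5.19% (3.92 to 6.83) against 5.37% and FOXA1 at 7.28% (5.77 to 9.16) against 8.32%. These intervals cover counting error alone and take regions as independent, so they cannot judge a difference between the classes. In NMR35 the same factors gave 8.28% against 17.5% and 2.54% against 7.54%.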

How the data were processed

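ChIP-seq peak lists of heart and liver were used, 99 of histone marks and 17 of transcription factors. MACS2 is named in the submitters' processing notes, and the aligner is not given in the sources used here. Each library has 1 deposited list. Builds, per the file names, were HetGla_1.0, DMR_v1.0, Cavpor3.0 and GRCm38. The deposited fold is the authors' ratio over background. Each peak also has a deposited −log10 p-value, a deposited −log10 q-value and a deposited score, which is 10 times the latter. Positions count from 1.

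Peaks were merged within a library where they overlapped or touched. Regions were built as the report says in Python 3.11.15 (SciPy 1.17.1, pandas 2.3.3, NumPy 2.4.6), and the interval code was tested on simulated data. Where several peaks met a region, the one with the highest fold was read. Distances run between nearest edges. Replicates are different animals. Relative width was compared in 12 two-sided exact permutation tests, Benjamini-Hochberg adjusted, and enhancer counts by an exact sign-flip test over species. Alternatives changed the overlap, the q limit, the number of replicates, the distance, the scaffolds and each library.

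Regions named were the 3 with the highest mean H3K27ac fold among those in every heart and no liver library, the one with most enhancers and the widest. The members, lists and comparisons were chosen with earlier results of these data known. Without gene positions of these builds, planned gene lists and sequences were not analysed here. Depth limits precision, since a weak peak may be missed in a shallow library.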

Additional observations from a re-analysis of the deposited data

Results flagged for a closer look

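In groups of 4 to 6 heart libraries, 2 values stood apart from the others of their group by Dixon's criterion at 95%. The median H3K4me3 peak width at heart-only promoters was 1026 bases in NMR31, against 378 to 464 in the other 3 NMR animals. The median H3K27ac width was 682 bases in DMR4, against 542 to 571 in the other 4 DMR animals. In all, 28 groups were looked at and chance flags about 1 in 20.

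Relative width, as log2 of heart-only over promoters found in liver, gave 4 species differences under the threshold (two-sided exact permutation, adjusted p = 0.0455 each). The rule that chose the regions depends on width, so these p-values cover the spread between libraries and are no independent test, and 16 of 35 choices without 1 heart library gave 0 such differences. NMR minus the mouse was 0.63 for H3K27ac and 0.68 for H3K4me3. DMR minus the mouse was 0.39 and 0.33.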

How the results depend on the processing

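The counts of heart-only promoters, in the order NMR, DMR, guinea pig and mouse, became 499, 1287, 531 and 759 with regions in at least 3 heart libraries, and 425, 1236, 539 and 711 with no peak in any liver library. They stayed within 1.5 times under overlaps of 1 base or 80%, a −log10 q of at least 4 in every list or in heart lists, scaffolds of at least 1 Mb, and, added after seeing the data, H3K4me3 over at least 50% of the region. With 1 library left out they ran from 547 to 987, 1754 to 2543, 696 to 1091 and 827 to 1450. The enhancer difference was 0.067 within 25 kb and 0.077 with regions in at least 3 heart libraries. It turned within 100 kb, to −0.087, and ran from −0.006 to 0.123 over 99 libraries left out.

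Pairs passing for relative width, 4 of 12, fell to 0 for heart-only widths alone, for overlaps of 1 base and within library-name series, where 2, 4 and 0 had an unadjusted exact permutation p below 0.05. It was 5 by mean width and 6 with a −log10 q of at least 4 in every list. Within the name series too few permutations remain for any pair to pass after adjustment, so the 0 there was fixed in advance. With 1 heart library left out the number of pairs passing ran from 0 to 5. Of these choices 16 of 35 gave 0, with 3 to 6 pairs below 0.05 unadjusted. For heart-only widths alone, differences that turned sign were −0.19 (H3K27ac) and −0.22 (H3K4me3) for NMR minus guinea pig, −0.47 and −0.58 for DMR minus guinea pig, −0.14 and −0.48 for DMR minus mouse, and −0.12 for H3K4me3 of NMR minus mouse. By mean width, DMR minus guinea pig turned to −0.02 for H3K27ac. With libraries left out it ran from −0.18 to 0.21 for H3K27ac and from −0.10 to 0.18 for H3K4me3. For heart-only widths alone the liver-found width is dropped from the ratio by construction. Leaving out a library lowers the number of permutations, whether or not pairs then passed. The cause of these changes was not tested. No paired analysis was possible because the species compared share no animal.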
